A study of Rattus norvegicus with 3 samples.

Results

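Vdac1, Vdac2, Mpc1, Mtch2 and COX3 encode proteins of the mitochondrial membranes, and their transcripts were followed over the 3 arrays of a rat time course. The genes were selected on measured values: Vdac1, Mpc1, COX3 and Mtch2 stood among the genes farthest apart between arrays of this series, so the sizes of their differences are a description and carry no test. Of the 5 genes, 4 had a probe set that the platform annotation assigns to them alone, out of 4736 genes so named. Vdac2 was not among them and is not analysed here. The 4 genes had 7 of the 8740 probe sets: 3 for Mtch2, 2 for Vdac1, and 1 each for Mpc1 and COX3.

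The study hybridised total RNA of Rattus norvegicus to Affymetrix arrays at 1 array per time label, which were 0.0 h, 0.1 h and 1.0 h. Every sample has the same source in the labels, pineal gland and adrenal medulla named together, so the tissue of a single array is not known. The treatment, strain, age and number of animals, and any pooling of them, are not stated in the sources used here, nor is it settled whether 0.1 h is a true time. No array has a replicate, so no difference could be tested, and precision is limited by the number of arrays. In RNA of whole tissue, fewer cells of a type and less RNA per cell cannot be told apart.

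The outer mitochondrial membrane is crossed by voltage-dependent anion channels, of which VDAC1 is the best known: it passes ATP, ADP and other small metabolites between cytosol and the intermembrane space. Pyruvate made by glycolysis then crosses the inner membrane through the mitochondrial pyruvate carrier, a complex of the proteins MPC1 and MPC2, and feeds pyruvate dehydrogenase in the matrix. MTCH2 is an outer membrane protein related to the SLC25 carriers of the inner membrane that binds the apoptosis protein BID and inserts other proteins into the outer membrane. COX3 is neither a channel nor a carrier. It is a subunit of cytochrome c oxidase, the last enzyme of the respiratory chain, sits in the inner membrane and is encoded by mitochondrial DNA, whereas the others are nuclear genes.

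The windows from 250 bases before to 50 bases after the gene start are shown for Vdac1 and Mpc1, whose profiles over the arrays were nearly the same, and for Mtch2, which on its brightest probe set was highest at 0.0 h. They are RefSeq sequences of the rat assembly GRCr8, read 5′ to 3′ on the strand of the gene, with motif matches in capitals. The Vdac1 window lies at chr10:37032959-37033258 on the plus strand, the Mpc1 window at chr1:54996909-54997208 on the minus strand, and the Mtch2 window at chr3:97286138-97286437 on the plus strand.
Vdac1: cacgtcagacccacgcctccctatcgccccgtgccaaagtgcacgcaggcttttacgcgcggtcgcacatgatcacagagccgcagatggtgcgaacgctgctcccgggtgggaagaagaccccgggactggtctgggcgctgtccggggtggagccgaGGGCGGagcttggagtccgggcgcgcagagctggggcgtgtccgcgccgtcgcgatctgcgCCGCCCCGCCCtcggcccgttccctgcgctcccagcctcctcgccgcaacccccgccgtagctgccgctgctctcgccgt
Mpc1: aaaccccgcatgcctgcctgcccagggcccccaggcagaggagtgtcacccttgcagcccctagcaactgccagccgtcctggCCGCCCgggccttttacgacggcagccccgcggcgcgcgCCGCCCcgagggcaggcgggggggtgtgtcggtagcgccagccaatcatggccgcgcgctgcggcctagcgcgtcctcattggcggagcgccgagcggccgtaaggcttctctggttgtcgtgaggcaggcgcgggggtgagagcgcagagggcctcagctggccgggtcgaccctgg
Mtch2: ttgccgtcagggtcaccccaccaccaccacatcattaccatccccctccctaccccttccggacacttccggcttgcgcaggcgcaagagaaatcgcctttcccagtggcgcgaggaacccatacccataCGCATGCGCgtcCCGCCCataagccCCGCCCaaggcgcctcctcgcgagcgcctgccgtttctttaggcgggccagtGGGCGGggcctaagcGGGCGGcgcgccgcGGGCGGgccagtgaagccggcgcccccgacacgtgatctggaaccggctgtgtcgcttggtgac

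These windows were searched on both strands for 5 motifs named after factors of housekeeping and mitochondrial genes: Sp1 as GGGCGG, NRF1 as GCGCATGCG, YY1 as AAGATGGCG, ERR as TCAAGGTCA and CRE as TGACGTCA. Vdac1 held 3 matches to the Sp1 letters, of which 2 share a base, Mpc1 held 2 and Mtch2 held 5. The Sp1 letters occurred in 33.1% of the 33469 windows of the same length in the table. The Mtch2 window also held 1 match to the NRF1 letters, which start at position -120 relative to the gene start, on the opposite strand, and which 1.52% of all windows contain. The letters of YY1, ERR and CRE, present in 1.73%, 0.433% and 1.83% of all windows, were not in these 3 windows. All 3 windows were rich in G and C, with 72% in Vdac1, 73.3% in Mpc1 and 68.3% in Mtch2, against a median of 51.7% over all windows. They held 40, 33 and 33 CpG dinucleotides, against a median of 7. A match is a description of letters and shows no binding.

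Each value below is a scaled intensity, the deposited intensity after the arrays were brought to equal medians, and a probe set was read only above a floor of 262.9, the 40th percentile of all values. A gene was counted when its brightest probe set was at least 2-fold apart between a pair of arrays, both above the floor. Such a count applied to 5.74% of 2995 genes as higher and 4.71% as lower at 0.1 h against 0.0 h. Between 1.0 h and 0.0 h it applied to 2.34% of 3029 genes as higher and 2.64% as lower, and at 1.0 h against 0.1 h to 4.07% of 3044 as higher and 5.09% as lower. The gene medians lay at 0.00, 0.01 and 0.00 on the log2 scale in these comparisons. The spread (SD from the median absolute deviation) of the log2 differences over all probe sets was 0.53, 0.44 and 0.56.

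Some measures of the arrays and of cell makeup also differed. For beta-actin, a control for RNA quality, the ratio of the 3′ to the 5′ signal was 10.4, 17.8 and 44.4 at 0.0 h, 0.1 h and 1.0 h, and that of GAPDH was 15.3, 18.6 and 14.1, highest on the 0.1 h array. The 9 spike-in probe sets differed by a mean log2 value of 0.28 at 0.1 h against 0.0 h, -0.20 at 1.0 h against 0.0 h and -0.47 at 1.0 h against 0.1 h. Pinealocyte markers were above the floor for 6, 7 and 7 of 7 genes and summed to scaled intensities of 76166, 83626 and 63626. Chromaffin cell markers were above it for 3 of 7 on each array (Pnmt, Chgb and Scg2), with sums of 67979, 64408 and 51819. Most of each sum was Chgb, with 64507, 61155 and 48322. The enzyme genes Th and Dbh and the transporter genes Slc18a1 and Slc18a2 were below the floor on all 3 arrays. Adrenal cortex markers (1 of 5 above the floor on each array, Fdx1, with Star, Cyp11a1, Cyp11b2 and Cyp17a1 below) summed to 19042, 11305 and 15558. Nearly all of each sum was Fdx1, with 18705, 11142 and 15068. The dimmer probe set of Fdx1 had 403.3, 406.1 and 433.3. Adipocyte markers were above the floor for 3 of 6 (Cidea, Lep and Cfd, with Ucp1, Fabp4 and Plin1 below) and summed to 10010, 12917 and 12261. These 3 went in opposite directions at 0.1 h against 0.0 h, with log2 differences of -1.41 for Cidea, 1.12 for Lep and 1.13 for Cfd. The other Lep probe sets were below the floor on both of those arrays. Muscle markers (3, 3 and 4 of 8) summed to 2422, 3095 and 3769. The part of RNA quality, spike-in level and cell makeup in the results below was not tested.

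Of the 4 member genes, 3 were at least 2-fold higher on the 0.1 h array than on the 0.0 h array and none was lower to that degree, beside the 5.74% of all genes given above. These 3 genes were picked for that difference, so nothing is read from the count. At 1.0 h against 0.0 h, 1 of 4 was at least 2-fold lower, beside 2.64% of all genes, and none higher. All 4 were at least 2-fold lower at 1.0 h than at 0.1 h, beside 5.09% of all genes. The members were picked for differences in these comparisons too, so nothing is read from either count. The count of 4 was 2 on the values as deposited, where Vdac1 and Mpc1 had log2 differences of -0.95 each, and 1 (COX3) after the spike-in probe sets were equalised, with -0.56 for Vdac1, -0.57 for Mpc1 and -0.93 for Mtch2. The comparisons share arrays, and a single high value on the 0.1 h array enters the first with a plus sign and the last with a minus sign. The median log2 difference of the 4 genes was 2.00, 0.67 and -1.22 in the 3 comparisons.

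**Figure D1:**
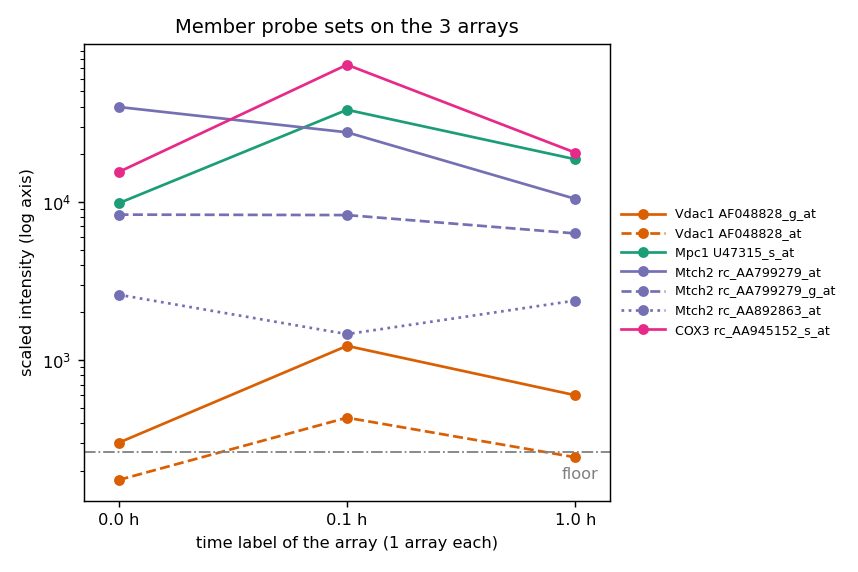
Scaled intensity (log axis) of the 7 probe sets of Vdac1, Mpc1, Mtch2 and COX3 on the arrays labelled 0.0 h, 0.1 h and 1.0 h, 1 array each and evenly spaced by label, with colours for genes, line styles for probe sets of 1 gene, and a dash-dot line for the floor of 262.9. The 0.1 h array is the highest for the Vdac1, Mpc1 and COX3 probe sets, while the Mtch2 probe sets have 3 different courses.

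Vdac1, the channel of the outer membrane, was highest on the 0.1 h array and intermediate at 1.0 h. Its brighter probe set, AF048828_g_at, had scaled intensities of 299.4 at 0.0 h, 1229 at 0.1 h and 598.5 at 1.0 h. The 0.0 h value lies close above the floor. The gene was therefore 4.10-fold higher at 0.1 h than at 0.0 h (log2 difference 2.04), the 18th highest of 4744 probe sets. At 1.0 h it stood 2.00-fold above 0.0 h, where the log2 difference of 0.9994 falls just short of the 2-fold mark, and 2.05-fold below 0.1 h (log2 difference -1.04).

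The other Vdac1 probe set, AF048828_at, is named after the same sequence record and is no separate sample of RNA. It had 174.1 at 0.0 h, 431.7 at 0.1 h and 242.5 at 1.0 h. Only its 0.1 h value lay above the floor, so the 0.1 h array was at least 1.64-fold brighter than the floor that bounds each of the other arrays. Its values at 0.0 h and 1.0 h, both below the floor, have no order, and as it passed the floor only where it was high it adds no support. No other VDAC gene could be set beside Vdac1, since Vdac3 also has no probe set of its own here.

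Mpc1, the subunit of the pyruvate carrier, had a course almost parallel to that of Vdac1. Its single probe set, U47315_s_at, had scaled intensities of 9804 at 0.0 h, 38283 at 0.1 h and 18613 at 1.0 h, all far above the floor. The 0.1 h value was 3.90-fold above the 0.0 h value (log2 difference 1.97), the 24th highest of 4744 probe sets. At 1.0 h the gene was 1.90-fold higher than at 0.0 h and 2.06-fold lower than at 0.1 h, with log2 differences of 0.92 and -1.04. After each log2 profile was centred on its mean, Vdac1 and Mpc1 differed by a root mean square of 0.035 over the 3 arrays. The partner subunit gene Mpc2 has no probe set of its own here.

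COX3, the cytochrome c oxidase subunit, had the largest difference of the members at 0.1 h and at 1.0 h was the nearest to its 0.0 h value among the 3 genes that were high there. Its single probe set, rc_AA945152_s_at, had scaled intensities of 15444 at 0.0 h, 73779 at 0.1 h and 20480 at 1.0 h. It was 4.78-fold higher at 0.1 h than at 0.0 h (log2 difference 2.26), the 11th highest of 4744 probe sets. At 1.0 h it was 1.33-fold higher than at 0.0 h and 3.60-fold lower than at 0.1 h, with log2 differences of 0.41 and -1.85, the last of these the 25th lowest of 4834. Its centred profile lay 0.34 from that of Vdac1 and 0.33 from that of Mpc1. Nuclear copies of mitochondrial DNA are known in mammals, and whether the probes also read such copies was not tested.

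Mtch2, the outer membrane insertase, was lowest on the 1.0 h array by its brightest probe set, and its probe sets disagreed. The probe set rc_AA799279_at had scaled intensities of 39891 at 0.0 h, 27573 at 0.1 h and 10452 at 1.0 h. It was 1.45-fold lower at 0.1 h than at 0.0 h (log2 difference -0.53). At 1.0 h it was 3.82-fold lower than at 0.0 h and 2.64-fold lower than at 0.1 h, with log2 differences of -1.93 and -1.40, the first of these the 8th lowest of 4775 probe sets.

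The other 2 Mtch2 probe sets did not show a difference of that size between 1.0 h and 0.0 h. The probe set rc_AA799279_g_at, named after the same sequence record, had 8316 at 0.0 h, 8261 at 0.1 h and 6320 at 1.0 h. Its values at 0.0 h and 0.1 h were level, with a log2 difference of -0.01, and its differences at 1.0 h were -0.40 against 0.0 h and -0.39 against 0.1 h. The third, rc_AA892863_at, had 2591 at 0.0 h, 1459 at 0.1 h and 2378 at 1.0 h, lowest at 0.1 h. It was 1.78-fold lower at 0.1 h than at 0.0 h, 1.09-fold lower at 1.0 h than at 0.0 h and 1.63-fold higher at 1.0 h than at 0.1 h. Every measured Mtch2 probe set was below its 0.0 h value at both later labels, by log2 differences between -0.01 and -1.93. After the spike-in probe sets were made equal, rc_AA892863_at was 0.07 higher at 1.0 h than at 0.0 h. The call for Mtch2 at 1.0 h thus rests on 1 of its 3 probe sets. Mtch1, the nearest relative, has no probe set of its own here.

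**Figure D2:**
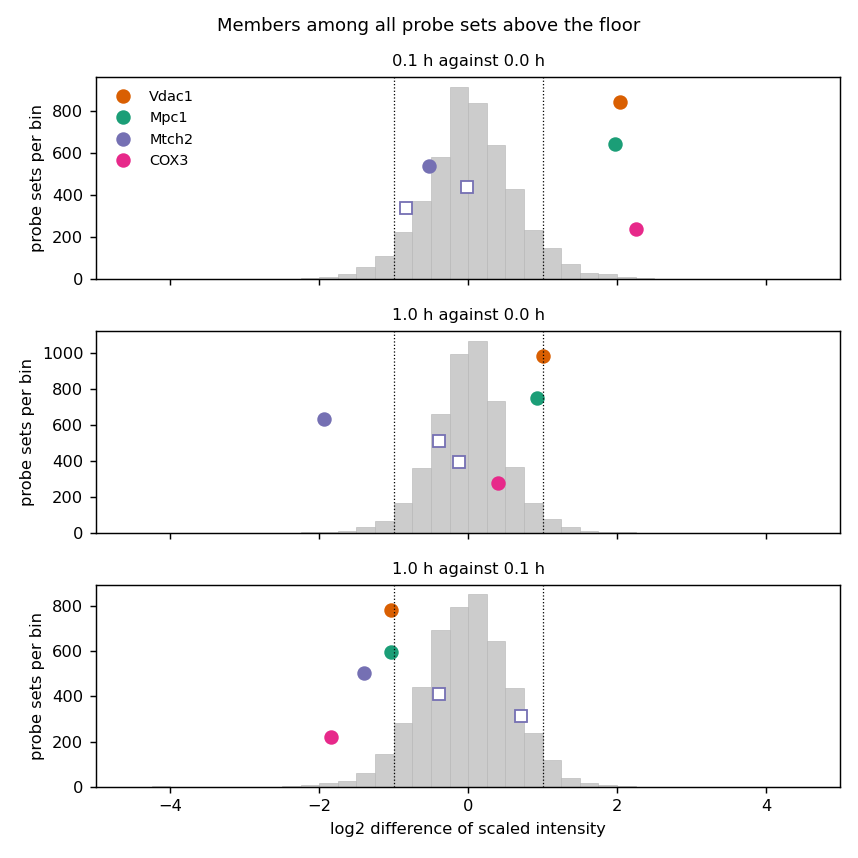
Histograms of log2 differences (x axis, 1 unit is 2-fold) of all probe sets that both arrays show above the floor (y axis, probe sets per bin) for 0.1 h against 0.0 h, 1.0 h against 0.0 h and 1.0 h against 0.1 h. Filled circles mark the brightest probe set of each member, open squares the other Mtch2 probe sets, at heights with no meaning, and dotted lines the 2-fold marks: Vdac1, Mpc1 and COX3 lie in the upper tail of the first panel and Mtch2 on its brightest probe set in the lower tail of the second.

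The place of COX3 within its own enzyme was read from the other subunit genes, of which 14 of 18 listed had a probe set. At 0.1 h against 0.0 h, 7 of 13 measured subunit genes were at least 2-fold higher and 1 lower, beside 5.74% and 4.71% of all genes. The list's median log2 difference was 1.00. The nuclear subunit genes Cox7b, Cox5b and Cox6b1 had log2 differences of 1.76, 1.38 and 1.23, and the isoform gene Cox4i2 had -1.17. The list was chosen with earlier results of these data known, so its count is no independent evidence. After equalising the spike-in probe sets, 2 of the 13 were at least 2-fold higher, with a median of 0.72, and on the values as deposited 5 were.

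COX1 and COX2, which with COX3 form the catalytic core of the enzyme and are encoded by the same mitochondrial DNA, had unequal courses. COX2 had scaled intensities of 11022 at 0.0 h, 26454 at 0.1 h and 17176 at 1.0 h. It was 2.40-fold higher at 0.1 h than at 0.0 h, with a log2 difference of 1.26, and -0.62 at 1.0 h against 0.1 h. COX1 on its brighter probe set, rc_AA893485_g_at, had 104898, 117009 and 130674 at 0.0 h, 0.1 h and 1.0 h, and on its other probe set, rc_AA850885_s_at, 47190, 59374 and 32550. Its log2 differences at 0.1 h against 0.0 h were 0.16 and 0.33, and the probe sets had opposite signs at 1.0 h against 0.1 h, with 0.16 and -0.87. The 3 core transcripts therefore differed at 0.1 h by log2 values of 2.26 for COX3, 1.26 for COX2 and at most 0.33 for COX1.

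Of the 21 measured probe sets of the other subunit genes, none had a larger difference than COX3 at 0.1 h against 0.0 h. They ranged between -1.17 and 1.76. The 1.0 h against 0.1 h difference of COX3 was lower than each of 23, which ranged between -1.54 for Cox6b1 and 1.26 for Cox4i2. For 1.0 h against 0.0 h it lay inside their range, with 13 of 21 above it and 8 below. Their median there was 0.50, and 2 of the 21 probe sets were at least 2-fold higher. Read from the brightest probe set of each gene, 1 of 13 genes, Cox7b with 2.02, was at least 2-fold higher, beside 2.34% of all genes. This value too rests on the 0.0 h intensity of 370.9. The list's median at 1.0 h against 0.1 h was -0.40 on the main scaling and 0.07 after equalising the spike-in probe sets, which moves COX3 by the same amount, to -1.38. COX3 was chosen as one of the genes farthest apart, which places it at the edge of any such list.

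**Figure D3:**
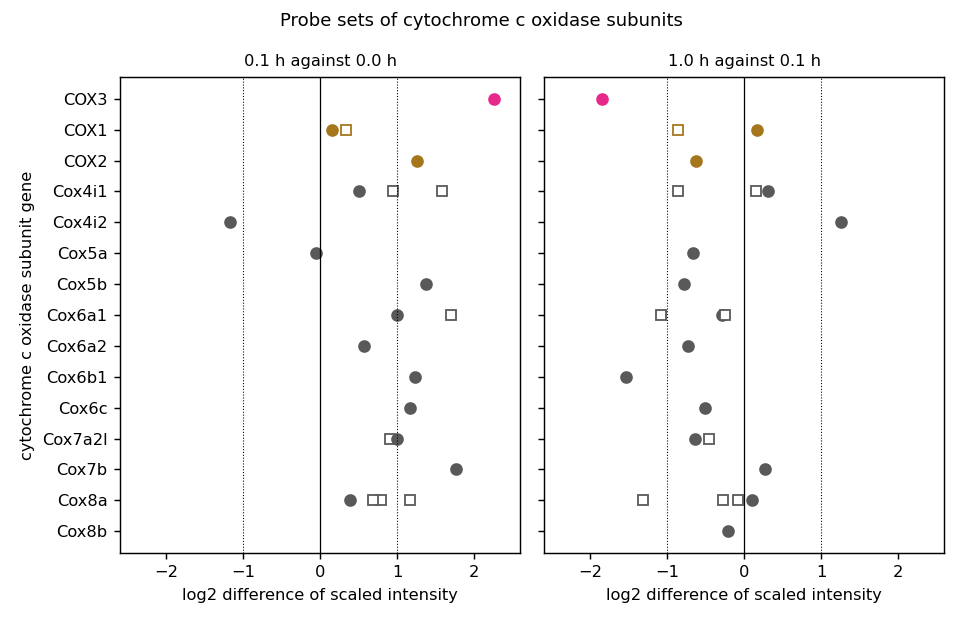
Log2 differences (x axis) of every measured probe set of cytochrome c oxidase subunit genes (y axis), 0.1 h against 0.0 h on the left and 1.0 h against 0.1 h on the right. Filled circles are each gene's brightest probe set, open squares its others, pink marks COX3, brown the other mitochondrially encoded subunits, and dotted lines the 2-fold marks: COX3 lies outside all others in both panels, at 2.26 and -1.85.

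The genes around VDAC1 in the outer membrane, with regulators of apoptosis that act there, spread in both directions at 0.1 h. Of 21 measured genes of 32 listed, 3 were at least 2-fold higher and 1 lower at 0.1 h against 0.0 h, beside 5.74% and 4.71% of all genes, with a median log2 difference of -0.20. The higher count was 1 with quantile normalisation, equalised spike-ins or averaged probe sets, and the lower count was 2 as deposited and under the last 2 of these settings. The 3 were Fis1, a factor of mitochondrial fission, with 1.34, the apoptosis inhibitor Bcl2 with 1.11 and its proapoptotic relative Bok with 1.05. The gene of the mitophagy receptor Bnip3l had -1.05. In the 1.0 h against 0.0 h comparison none was at least 2-fold higher and 1 lower, beside 2.34% and 2.64% of all genes. The lower one was Maob, a monoamine oxidase of the outer membrane, with -1.53. At 1.0 h against 0.1 h, 1 was higher and 3 lower, beside 4.07% and 5.09% of all genes. Aifm1, an apoptosis-inducing factor, had 1.13, the BH3-only gene Bcl2l11 -1.21, Maob -1.17 and Bok -1.16. The balance of these counts turned to 4 higher and 0 lower after equalising the spike-in probe sets. It was 0 and 0 on second-brightest probe sets. Bid, whose protein MTCH2 binds, had -0.57 at 0.1 h and 0.03 at 1.0 h, both against 0.0 h, and was named for that link after its values were seen.

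Genes that supply and use pyruvate on either side of the carrier likewise spread around the middle of all genes. At 0.1 h against 0.0 h, 1 of 14 measured genes was at least 2-fold higher and none lower, beside 5.74% and 4.71% of all genes, with a median of 0.18. The gene was Slc16a3, a monocarboxylate transporter of the plasma membrane, with 1.09. Its brightest genes, Pkm, the last enzyme of glycolysis, and Pdha1, a subunit of pyruvate dehydrogenase, had 0.09 and -0.07. Between 1.0 h and 0.0 h none of 15 was at least 2-fold apart, beside 2.34% of all genes as higher and 2.64% as lower. Pkm and Pdha1 had -0.33 and 0.11. At 1.0 h against 0.1 h, 1 of 14 was at least 2-fold higher and 1 lower, beside 4.07% and 5.09% of all genes. These were Pdhx with 1.05 and Dlat with -1.54, both subunit genes of the pyruvate dehydrogenase complex. The 0.1 h value of Pdhx, 273.0, lay close above the floor. The other Dlat probe sets had -0.54 and -1.16. After equalising the spike-in probe sets the 0.1 h against 0.0 h median was -0.09, with 0 higher and 1 lower, and 1 gene was also at least 2-fold lower there as deposited and with quantile or cyclic loess normalisation.

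Genes of the SLC25 carrier family, to which MTCH2 is related, were measured for 13 of 33 listed. Their median log2 differences were 0.00, 0.01 and -0.15 in the 3 comparisons. At 0.1 h against 0.0 h, 1 of the 13 was at least 2-fold higher, beside 5.74% of all genes. This was Ucp2, an uncoupling protein, with 1.34. Slc25a5, an ADP/ATP carrier, had 0.73 there. It was the 1 gene at least 2-fold lower at 1.0 h against 0.1 h, with -1.18, beside 5.09% of all genes. The phosphate carrier Slc25a3 and the ADP/ATP carrier Slc25a4 had 1.0 h against 0.0 h differences of -0.53 and -0.13. Of the 13 carriers, 6 lay above 0 and 7 below at 0.1 h against 0.0 h. Ucp2 and Slc25a5 had their highest scaled intensity on the 0.1 h array, as did Slc25a1, Slc25a4 and Slc25a17. The values were 31721 against 12520 at 0.0 h for Ucp2, and 29007 against 17541 for Slc25a5. The members Vdac1, Mpc1 and COX3 were also highest there, but were picked for large differences, so nothing is read from the likeness.

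Protein import and inner membrane organisation genes include the translocases that bring carriers into place, and 13 of 38 listed were measured. None was at least 2-fold apart in either comparison with 0.0 h, with medians of -0.01 and -0.08. Of all genes, 5.74% were higher and 4.71% lower at 0.1 h, and 2.34% and 2.64% at 1.0 h. At 0.1 h against 0.0 h, 1 gene was higher with a floor at the 20th percentile or on second-brightest probe sets. With equalised spike-ins 1 was lower there. The list's brightest genes were Tomm20, a receptor of the outer membrane translocase, and Hspd1, the matrix chaperonin. At 0.1 h against 0.0 h they had -0.81 and 0.40 on their brightest probe sets. Their other probe sets differed from these, with 0.01 for Tomm20 and 1.09 for Hspd1. At 1.0 h against 0.1 h, 1 of 13 was at least 2-fold lower, beside 5.09% of all genes, and the median was -0.11. This was Grpel1, a cochaperone of import, with -1.03. The lower count was 0 as deposited and with quantile normalisation, cyclic loess normalisation or equalised spike-ins. The last of these gave 1 gene higher and a median of 0.36. Of 12 listed channels and regulators of the inner membrane, 3 had a probe set. Kcnj8, a subunit of ATP-sensitive potassium channels better known from the plasma membrane, had 1.05 at 0.1 h and 1.38 at 1.0 h, both against 0.0 h. Abcc9, the gene of a regulatory subunit of such channels, had 0.24 and -0.05. Ppif, the cyclophilin that regulates the permeability transition pore, had 0.60 and 0.42. Kcnj8 was thus the 1 gene of 3 at least 2-fold higher in both comparisons, beside 5.74% and 2.34% of all genes. Its 0.0 h value of 326.1 lay close above the floor.

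**Figure D4:**
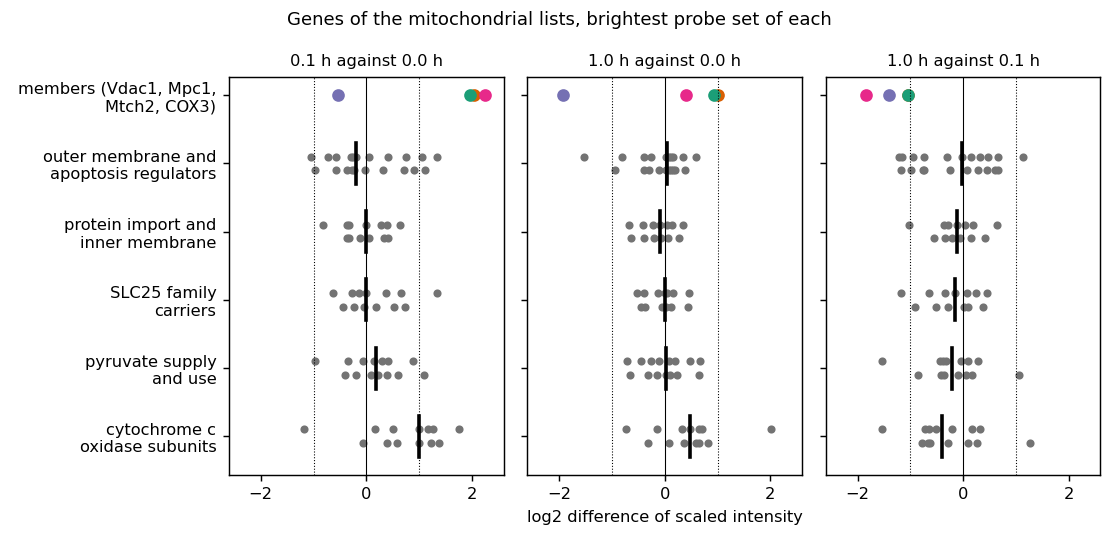
Log2 differences (x axis) of single genes, read from their brightest probe set, for the 4 members and the lists of mitochondrial genes (y axis), 1 panel per comparison. Vertical bars are list medians and dotted lines the 2-fold marks: the oxidase list has a median of 1.00 at 0.1 h against 0.0 h, while the outer membrane, import, SLC25 and pyruvate lists have medians between -0.20 and 0.18.

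For each member the 3 genes with the most similar course were looked up among 1891 genes above the floor on all 3 arrays and above the 60th percentile in mean, by the root mean square difference of centred log2 profiles. With 3 arrays a close match is a description only. Akap11, an anchor of protein kinase A, came first for both Vdac1 and Mpc1, at 0.044 and 0.024. Its scaled intensity was 2441 at 0.0 h, 9297 at 0.1 h and 4707 at 1.0 h. Fkbp2, a prolyl isomerase of the endoplasmic reticulum, and Ndufb5, a complex I subunit, followed for both, at distances of 0.11 and 0.10 from Vdac1 and 0.086 and 0.12 from Mpc1.

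COX3 was nearest to Hmga1, a chromatin protein gene, at 0.057, with 2896, 12864 and 3915 at 0.0 h, 0.1 h and 1.0 h. The complex I subunit gene Ndufb9 followed at 0.11 and Hnrnpf, a splicing factor gene, at 0.29. Mtch2 on its brightest probe set was nearest to Tnfsf13, a cytokine gene, at 0.059, with 3375, 2143 and 887.4, and then to Tmem64 at 0.10 and Mboat7, a lysophospholipid acyltransferase gene, at 0.12. Mtch2 lay 1.31, 1.27 and 1.22 from Vdac1, Mpc1 and COX3, so no member shared its course.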

How the data were processed

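The authors deposited, for each array, a linear intensity of every probe set. How probe sets were summarised, background correction and software are not stated in the sources used here. Of 8799 probe sets, 59 controls were left out of all counts except the spike-in scaling. By the platform annotation 7006 had 1 gene symbol, 308 several and 1426 none, and only those with 1 symbol were named. The RefSeq gene table of GRCr8 matched 6985 of them by gene ID and changed 0 symbols.

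Intensities were taken to log2, scaled to the array median and shifted until the probe sets that exceed the floor on every array had equal medians. Scaling and shift together changed the deposited log2 values by 0.01, 0.04 and -0.05 at 0.0 h, 0.1 h and 1.0 h. Above the floor were 5140, 5291 and 5319 probe sets at 0.0 h, 0.1 h and 1.0 h. A gene was read from its brightest probe set. Differences were taken where both arrays were above the floor, with no test, and scripts were tested on simulated data.

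Named were all members and their nearest relatives, list genes at least 2-fold apart (up to 4 in each direction, or the 2 brightest where fewer than 2 were), and the 3 genes nearest in profile to each member. Not every gene so given is printed. The members, the lists and the alternatives were chosen with earlier results of these data known. Alternatives were the values as deposited, quantile and cyclic loess normalisation (limma 3.58.1, R 4.3.3), equal spike-in means, floors at the 20th and 60th percentiles, the mean of a gene's probe sets and its second-brightest probe set. Tables were made with Python 3.11.15, numpy 2.4.6 and pandas 2.3.3.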

Additional observations from a re-analysis of the deposited data

How the results depend on the processing

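No paired analysis was possible because each time label has 1 array. Under the alternatives, 114 member log2 differences kept their sign where called and moved by less than the SD across probe sets, and 4 moved more, all of Mtch2: its difference at 1.0 h was -0.82 against 0.0 h and -0.36 against 0.1 h with probe sets averaged, and -0.40 and -0.39 on the second-brightest. Member genes at least 2-fold higher at 0.1 h against 0.0 h numbered 0 on second-brightest probe sets, where Mtch2 is the only member read, instead of 3. Between 1.0 h and 0.0 h, 1 member was at least 2-fold higher as deposited and 2 with equal spike-ins instead of 0, and 0 were lower with probe sets averaged or second-brightest instead of 1. Against 0.1 h, 2 of 4 were lower at 1.0 h as deposited, 1 with equal spike-ins, 2 with probe sets averaged and 0 on second-brightest ones. With a floor at the 60th percentile Vdac1 has no measured value. Equal spike-ins moved the median of all probe sets to -0.26, 0.22 and 0.46, against 0.02, 0.02 and -0.01, and changed the higher and lower counts at 0.1 h against 0.0 h to 134 and 463 (main scaling 296 and 206), at 1.0 h against 0.0 h to 261 and 63 (138 and 123), and at 1.0 h against 0.1 h to 800 and 60 (188 and 266). Relative to that shift the member differences keep their places. The same counts were 534 and 482, 354 and 367, and 437 and 530 with a floor at the 20th percentile, and 172 and 131, 64 and 64, and 103 and 167 at the 60th, where the floor sets how many dim probe sets are read. The cause of the other changes was not tested.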
